A study of Arabidopsis thaliana with 9 samples.

Results

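The transcripts described here are those of genes that Arabidopsis carries in the chloroplast genome rather than in the nucleus. They are the probe sets that the platform annotation assigns to a single plastid gene of the photosystems (psa, psb), the cytochrome b6f complex (pet), the NDH complex (ndh), the plastid RNA polymerase (rpo) or the ycf genes, together with rbcL, accD, matK, clpP and cemA. The rule used names alone, with no measured value, but it was chosen with earlier results of these data known. It gave 47 probe sets for 47 genes, out of 22810 probe sets in the table and 13350 genes named by a single-gene probe set, and all 47 lie on the plastid chromosome in the RefSeq table. The rule also covers ndhB, ycf1 and ycf2, genes of the plastid inverted repeat, whose 3 probe sets each list 2 gene copies and were therefore not used here.

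RNA came from leaves of Arabidopsis thaliana, with 9 Affymetrix ATH1 arrays in 3 groups of 3. Wild-type plants were Col-0. Both other groups were in the Col-0 background, carried a T-DNA knock-out in At1g55350 and carried a transgene. That locus is DEK1, which encodes a membrane protein with a cytoplasmic calpain protease domain. In the calpain overexpressing group the transgene is labelled ADEK1 calpain, and in the calpain null group it is labelled ADEK1 calpain null. The promoter of the transgene, what null stands for in this construct and whether each line derives from 1 transformant are not given in the sources used here. All plants were sampled at growth stage 1.14. They had been stratified in the cold for 3 days, moved to soil after 7 days and grown in short days at 21 °C with 6 plants in a pot. The replicates are numbered samples that nothing in the labels ties to separate plants, so every p-value rests on a spread that may be only technical. No probe set carries the name DEK1 in the annotation used here, and the targeted gene was not analysed here.

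The plastid genome keeps the genes for the reaction-centre cores of both photosystems, for parts of the cytochrome b6f and NDH complexes, for the large subunit of Rubisco and for its own gene expression machinery. Most photosynthesis genes are transcribed by a bacterial-type polymerase whose core subunits, rpoA, rpoB, rpoC1 and rpoC2, are themselves plastid genes, while a phage-type polymerase encoded in the nucleus transcribes rpoB and other housekeeping genes. Many plastid genes are cotranscribed as operons, and most plastid mRNAs carry no stable poly(A) tail. The one-cycle labelling named in the labels starts cDNA synthesis from an oligo(dT) primer, so the signals below are levels of labelled plastid RNA after that step.

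Signals are linear intensities from the MAS5 algorithm, scaled so that the trimmed mean was 100.01 on every array, and they carry no read depth. Their number, 3 arrays a group, limits the precision. Leaf identity was visible in the nuclear gene RCA, Rubisco activase, with group means of 5277 in wild type, 5618 in calpain null and 4926 in calpain overexpressing leaves. LHCB4.1, a photosystem II antenna protein that is not among the leaf mesophyll markers listed, had 5273, 5994 and 5516. Of the leaf mesophyll markers listed, only RCA and LHCB4.3 were tested, and LHCB4.3 was dim, with 69.6, 65.0 and 128. Their log2 fold changes for overexpressing against wild type had opposite signs, -0.098 for RCA and 0.88 for LHCB4.3. PYK10, a beta-glucosidase abundant in roots, read 15.2 to 43.3 in wild type, up to 63.9 in null (replicate 3) and 9.96, 20.8 and 112 in overexpressing leaves, the last on replicate 3. The senescence gene SAG101 had 16.8, 29.3 and 18.8, and the epidermal receptor kinase CR4 38.2, 39.6 and 30.5. Of 4 stomatal lineage genes tested 0 were called. Over all probe sets, 1.61% were called for overexpressing against wild type, 0.0565% for null against wild type and 0.523% for overexpressing against null. At an unadjusted limma p under 0.05 there were 3 of these 4 for overexpressing against null, where 10.6% of all probe sets passed. These were SPCH (0.31), MUTE (-0.46) and FMA (-0.39, log2 fold changes). There was 1 for overexpressing against wild type (FMA, -0.43), where 18.1% passed, and 1 for null against wild type (SPCH, -0.40), where 17.4% passed. The part of leaf cell composition in the values below was not tested. Of the 14151 probe sets that passed the filter on low signals, limma called 228 between calpain overexpressing and wild-type leaves.

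All 47 plastid probe sets passed that filter. Their mean signal over the 9 arrays ran from 37.6 for psbN to 6187 for psbM, with a median of 1194. Of the 47, 24 had a mean of at least 1000, a level reached by 4.46% of all probe sets tested. Together they held between 1.77% (wild-type replicate 3) and 2.08% (wild-type replicate 1) of the summed signal of an array. Brightness differs between probes for reasons other than abundance, so these signals give no order of transcript levels between genes.

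No plastid gene was called in any comparison. At an adjusted p under 0.05 (limma, Benjamini-Hochberg over all 14151 probe sets), 0 of 47 were called between calpain overexpressing and wild-type leaves, where 1.61% of all probe sets were called. Between calpain null and wild type the count was 0 of 47 against 0.0565% of all, and between calpain overexpressing and calpain null it was 0 of 47 against 0.523%. The F-test over the 3 groups called 0 of 47 against 1.16%. At these shares any 47 probe sets would hold few calls or none, so the counts of 0 say little about these genes. At an unadjusted p under 0.05, limma gave 1 plastid gene (psbC) for overexpressing against wild type, where 18.1% of all probe sets passed. It gave 2 (psbC and psbD) for null against wild type, where 17.4% passed, and 1 (ndhF) for overexpressing against null, where 10.6% passed. The F-test gave 1 (psbC), against 19.4%.

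The median absolute log2 fold change of the 47 was 0.118 for overexpressing against wild type, where it was 0.178 over all probe sets. For null against wild type it was 0.114 against 0.177 over all, and for overexpressing against null 0.105 against 0.135. The members are brighter than most probe sets, and these medians were not matched for signal. Between calpain overexpressing and wild-type leaves, the 47 log2 fold changes ran from -0.26 to 0.28 with a median of -0.052, 17 above 0 and 30 below, while the median over all probe sets was 0.0059. Between calpain null and wild type they ran from -0.51 to 0.19 with a median of -0.060, 14 above 0 and 33 below, against a median of 0.013 over all. Between calpain overexpressing and calpain null they ran from -0.24 to 0.78 with a median of 0.024, 28 above 0 and 19 below, against -0.0073 over all. The negative medians against wild type turned positive without wild-type replicate 1, to 0.096 for overexpressing and 0.046 for null. All fold changes are on the scale of log2(signal + 3.63), which understates changes of dim probe sets. These 3 comparisons share samples pairwise, so they are not independent of each other. In whole-leaf RNA, the number of cells of a type and the RNA per cell cannot be told apart.

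The intervals give the precision of each gene's difference relative to the spread between these arrays. That spread may be only technical and each interval is for a single gene, so they set no bound on differences between plants or lines. The 95% interval of the log2 fold change had a median half-width of 0.33. For overexpressing against wild type it lay within 0.5 of 0 for 34 genes and within 1 of 0 for all 47. For null against wild type these counts were 33 and 45, and for overexpressing against null 34 and 45. The widest intervals belonged to psbN and ndhF, among the dimmest members, and reached -1.21 (null against wild type, psbN) and 1.41 (overexpressing against null, ndhF).

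**Figure D1:**
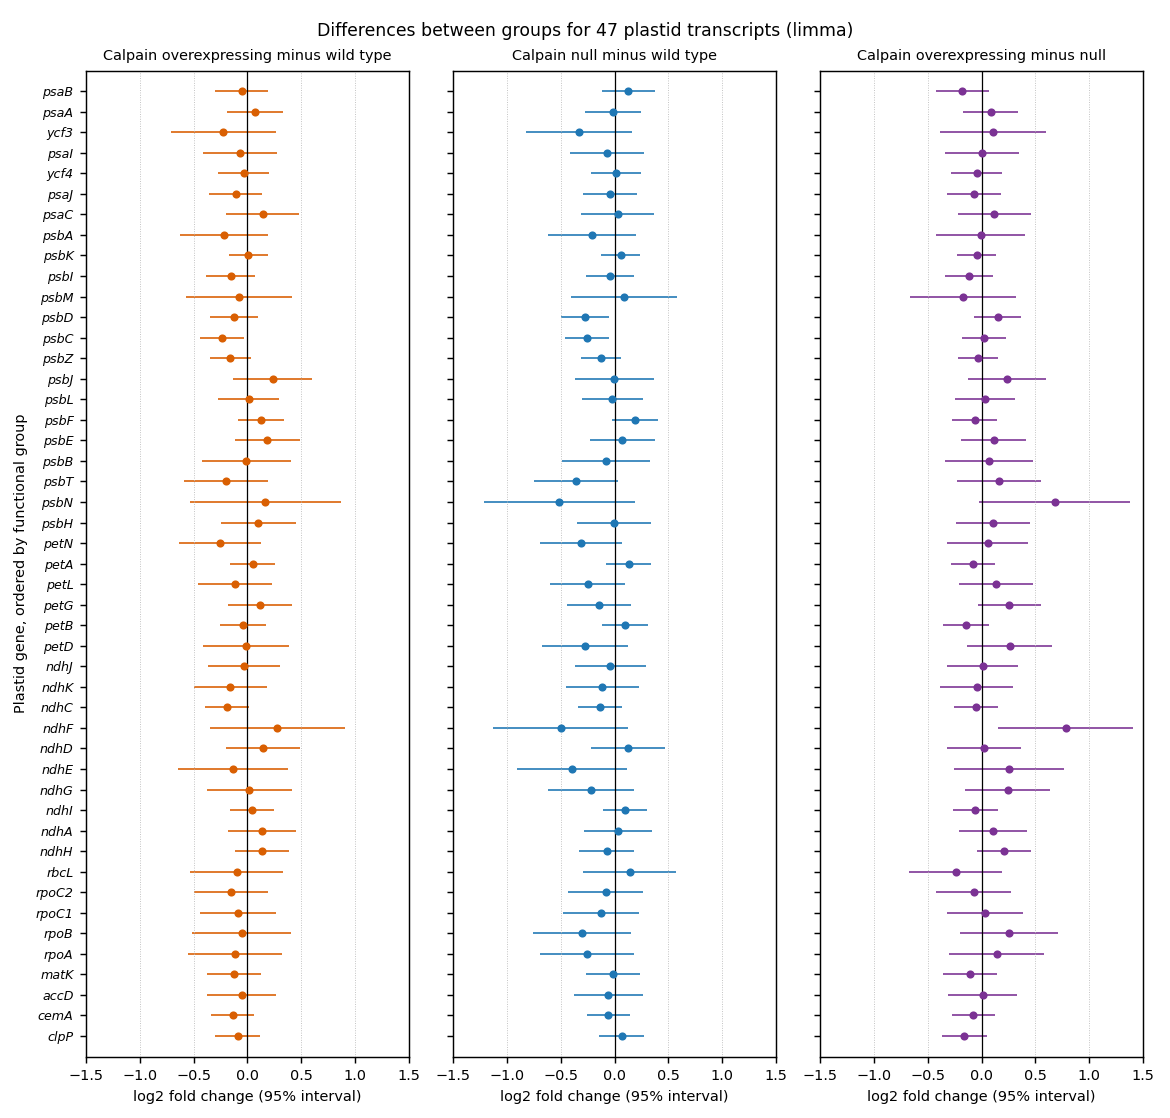
Log2 fold change of each of the 47 plastid transcripts (points) with its 95% interval from limma (bars), for calpain overexpressing minus wild type, calpain null minus wild type and calpain overexpressing minus calpain null, with genes ordered by functional group. Points lie between -0.26 and 0.28 in the left panel, and the widest intervals, those of psbN and ndhF, reach -1.21 and 1.41.

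Plastid signals also varied between arrays of the same group. Wild-type replicate 1 held the highest of the 9 signals for 26 of the 47 genes (55.3%), against 17.7% of all probe sets tested. Calpain null replicate 3 and calpain overexpressing replicate 3 were highest for 8 genes each, wild-type replicate 2 and calpain null replicate 2 for 2 each and calpain overexpressing replicate 2 for 1, and the other 3 arrays for 0. Within the wild type, replicate 1 lay above both other arrays for 42 of 47 genes, against 38.9% of all probe sets, and its signal was a median of 1.21 times the mean of the other 2, against 1.01 over all. The 5 exceptions were psbI, psbM, psbC, psbF and psbE. Comparisons with wild type therefore carry the level of this array.

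The excess on wild-type replicate 1 was larger in the dimmer genes, a difference given here without a test. For the 24 members with a mean signal up to 1194, replicate 1 was a median of 1.44 times the other wild-type arrays and 79.2% were highest on it, against 1.01 and 18.0% for the 10553 other probe sets in that signal range. For the 23 brighter members the ratio was 1.14 and 30.4% were highest on it, against 1.01 and 28.7% for 453 others. The median residual SD (log2) was 0.23 for the dimmer members against 0.18 for other probe sets of that signal range, and 0.15 for the brighter members against 0.13.

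The 22 other plastid-encoded probe sets tested, for ribosomal proteins (rps, rpl), ATP synthase subunits (atp) and ccsA, were high on the same array. Of these, 18 (81.8%) were highest on wild-type replicate 1, with a median log2 deviation from the 9-array mean of 0.34, against 0.19 for the 47 members. Of 10 mitochondrion-encoded probe sets tested, 0 were highest there, and 5 were highest on calpain null replicate 3. These were dim, with group means between 12.6 and 80.5 over the 10. Of 15 nuclear photosynthesis probe sets, 1 was highest on it.

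Some technical values of that array also stood apart. The 5S ribosomal RNA control probe set read 118 on wild-type replicate 1 and 61.6 and 54.5 on the other wild-type arrays, against 46.3 to 86.0 on the 6 transgenic arrays. The 25S control read 315 there, against 160 to 384 on the other 8 arrays. The ratio of the 3′ to the 5′ actin control probe set was 16.7 on wild-type replicate 1, the highest of 9 values, and 12.3 to 15.1 elsewhere. The same ratio for ubiquitin was 2.51 there, within the 2.43 to 3.15 of the other arrays. Their part in the plastid signals was not tested.

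**Figure D2:**
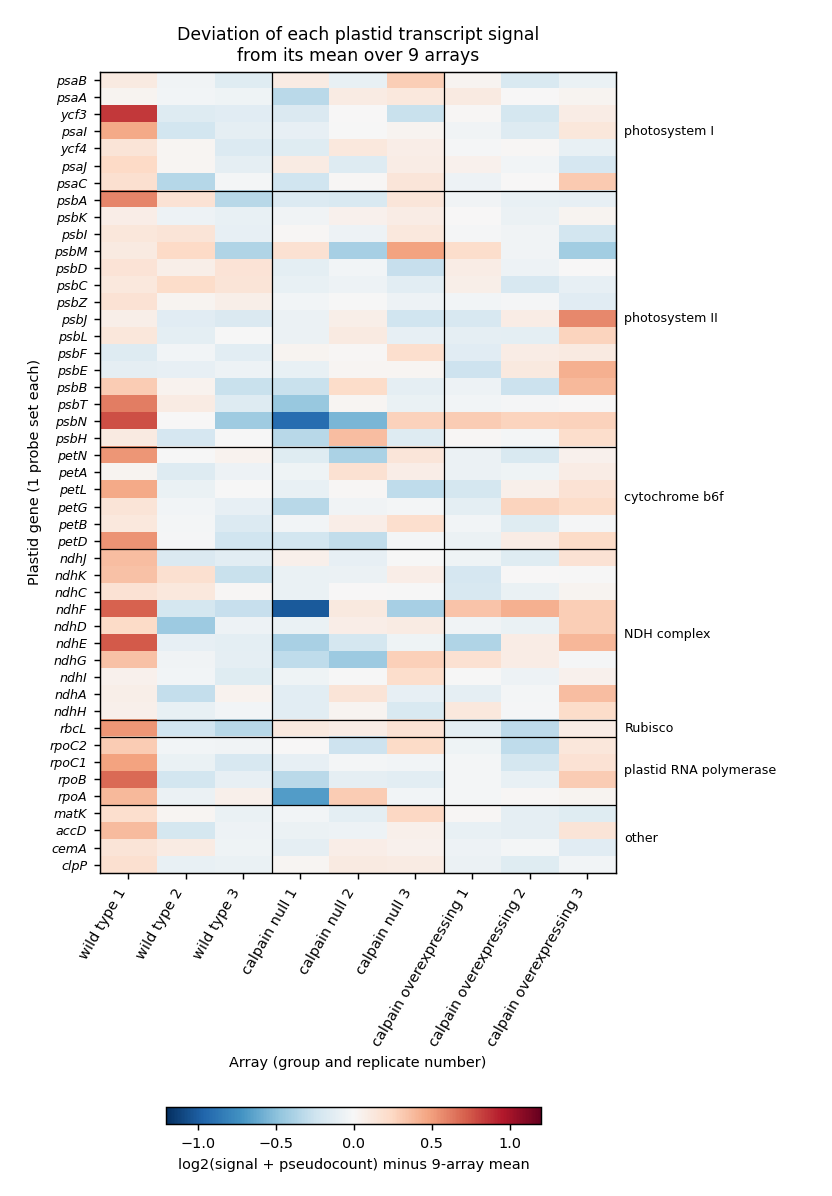
Heat map of each plastid transcript's log2(signal + pseudocount) minus its mean over the 9 arrays, with genes in rows by functional group and arrays in columns by group and replicate, on a colour scale from blue (below the mean) to red (above). The column of wild-type replicate 1 is the reddest, holding the highest signal of 26 genes, and calpain null replicate 1 is lowest for psbN, ndhF and rpoA.

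**Figure D3:**
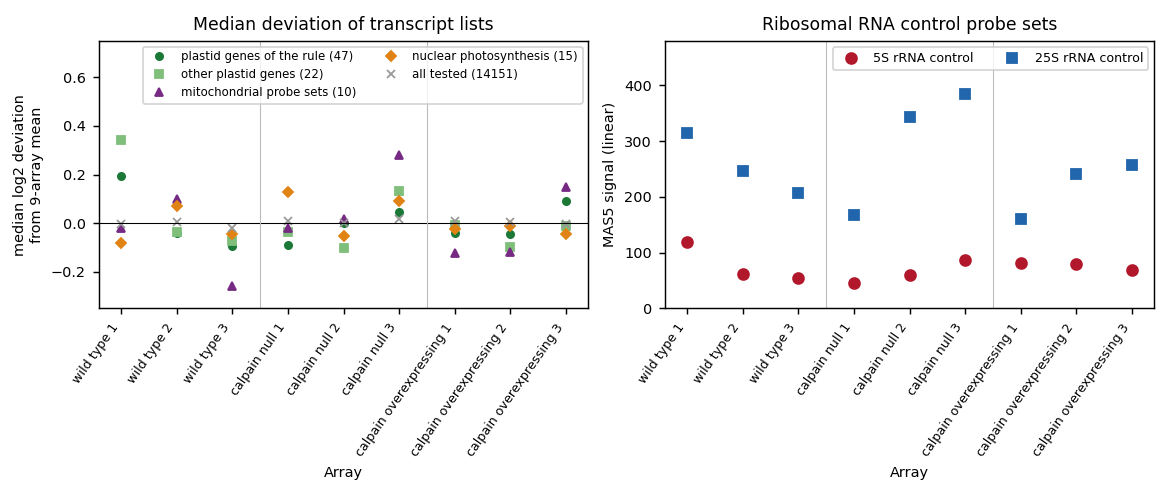
Left, median log2 deviation from the 9-array mean on each array for the 47 plastid genes, other plastid genes, mitochondrial and nuclear photosynthesis probe sets and all probe sets tested. Right, linear MAS5 signals of the 5S and 25S ribosomal RNA control probe sets on the same arrays. Wild-type replicate 1 has the highest plastid medians (0.19 and 0.34) and the highest 5S signal (118).

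Photosystem II, the complex that splits water, is represented by 15 genes. The nearest approach to a difference from wild type was in psbC and psbD, cotranscribed genes for an inner antenna protein and a reaction-centre protein. The psbC probe set (RefSeq locus tag ArthCp018, as for the genes that follow) read 1294, 1386 and 1324 in wild type, 1119, 1136 and 1089 in calpain null and 1249, 1041 and 1108 in calpain overexpressing leaves. All 6 transgenic arrays were thus below all 3 wild-type arrays, with means of 1335 ± 46.5, 1115 ± 23.8 and 1133 ± 106 (SD, n = 3 each). The log2 fold change was -0.24 for overexpressing against wild type (95% interval -0.44 to -0.04, limma adjusted p = 0.209) and -0.26 for null against wild type (-0.46 to -0.05, adjusted p = 0.194). The overexpressing and null groups differed by 0.02 (-0.18 to 0.22, adjusted p = 0.972).

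The psbC call was sensitive to the arrays used. Its limma adjusted p for overexpressing against wild type ran from 0.0163 to 0.573 over the alternatives. The gene was called with array weights (0.0163), without calpain overexpressing replicate 1 (0.0448) and without all 3 arrays numbered 1 (0.0362). In these settings calls over all probe sets also rose, to 2663 of 14151, 1775 of 14064 and 1914 of 13825, from 228 of 14151. The calls of psbC are thus not particular to it. For null against wild type the adjusted p ran from 0.0820 to 0.465.

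The genes psbD and psbZ, which flank psbC on the plastid chromosome, were chosen for naming after their values were seen. The psbD probe set (ArthCp017) read 524, 490.4 and 524 in wild type, 430.0, 458 and 385 in calpain null and 496, 447 and 467 in calpain overexpressing leaves. All null arrays were below all wild-type arrays (log2 fold change -0.27, limma adjusted p = 0.204), while the overexpressing arrays overlapped the wild-type range (-0.13, adjusted p = 0.534). The psbZ probe set (ArthCp019), for a small subunit of the photosystem II core, read 1460.2, 1322 and 1361 in wild type, 1261, 1292 and 1241 in null and 1261, 1276 and 1176 in overexpressing leaves. Both transgenic groups lay below the wild type without overlap, by -0.13 (adjusted p = 0.468) in null and -0.16 (adjusted p = 0.350) in overexpressing leaves.

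Groups that do not overlap are common on these arrays. Between overexpressing and wild type, 0 members were higher on every array, against 12.1% of all probe sets, and 2 (psbC and psbZ) were lower on every array, against 9.72%. Between null and wild type, 1 (psbF) was higher, against 13.0%, and 4 (psbD, psbC, psbZ and ndhC) were lower, against 11.5%. Between overexpressing and null, 2 (rpoB and ndhF) were higher, against 6.26%, and 1 (clpP) was lower, against 7.68%. Each share of members was below the share of all probe sets.

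The psbE, psbF, psbL and psbJ genes form 1 transcription unit, in which psbE and psbF encode the subunits of cytochrome b559 and psbL and psbJ small core subunits. The psbE probe set (ArthCp039) read 1549, 1562 and 1600.5 in wild type, 1571, 1700.1 and 1692 in calpain null and 1406, 1807 and 2243 in calpain overexpressing leaves. The psbJ probe set (ArthCp036) read 1426, 1242 and 1210.3, then 1293, 1433 and 1155, then 1192, 1447 and 2029 in the same order of groups. In both genes overexpressing replicate 3 was the highest of the 9 arrays and replicate 1 was among the lowest, so that the overexpressing group spanned the wild-type range.

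Their log2 fold changes for overexpressing against wild type were 0.19 for psbE (limma adjusted p = 0.502) and 0.24 for psbJ (adjusted p = 0.475). All 4 genes of the unit were above 0 in that comparison, with a median of 0.16, and 3 of the 4 were highest on overexpressing replicate 3. Without overexpressing replicate 1, psbE was called (0.36, limma adjusted p = 0.0490), in a setting where 1775 of all 14064 probe sets tested were called. Without overexpressing replicate 3 the values were 0.022 for psbE and 0.027 for psbJ. The psbF probe set (ArthCp038) read 2375, 2585 and 2428 in wild type, 2717, 2669 and 3053 in null and 2409.7, 2825 and 2846 in overexpressing leaves. All null arrays were above the wild-type arrays, with a log2 fold change of 0.19 (95% interval -0.02 to 0.40, adjusted p = 0.333).

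Of the other photosystem II genes, psbT and psbN lie next to each other, psbN on the opposite strand, and encode a small core subunit and an assembly factor. The psbT probe set (ArthCp050) read 848, 592 and 498 in wild type, 403, 564 and 524 in calpain null and 543, 550.1 and 557 in calpain overexpressing leaves. The psbN probe set (ArthCp051), the dimmest of all 47, read 62.8, 35.4 and 25.4 in wild type, 17.1, 22.9 and 43.5 in null and 44.4, 43.4 and 43.5 in overexpressing leaves. Both were highest on wild-type replicate 1 and lowest on null replicate 1. The log2 fold change for null against wild type was -0.36 for psbT (limma adjusted p = 0.327) and -0.51 for psbN (adjusted p = 0.430), and psbN differed by 0.68 between overexpressing and null (95% interval -0.02 to 1.38, adjusted p = 0.490). Without wild-type replicate 1 the null against wild type values were -0.14 for psbT and -0.19 for psbN, and without null replicate 1 the overexpressing against null value of psbN was 0.42.

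The psbA gene encodes the reaction-centre protein that turns over fastest in light. Its probe set (ArthCp002) read 819, 617 and 431 in wild type, 487, 479.6 and 604 in null and 530.4, 511 and 510.0 in overexpressing leaves. The wild-type arrays alone spanned all the others, and the log2 fold change for overexpressing against wild type was -0.22 (limma adjusted p = 0.567), turning to 0.0034 without wild-type replicate 1. The psbM probe set (ArthCp016), for a small subunit at the dimer interface, read 6528, 7125 and 4718 in wild type, 6854, 4579 and 8463 in null and 7022, 5865 and 4527 in overexpressing leaves, with complete overlap of the groups. The psbK probe set (ArthCp005) had the narrowest range of all, between 3339 and 3768, a ratio of 1.13 between its highest and lowest array.

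**Figure D4:**
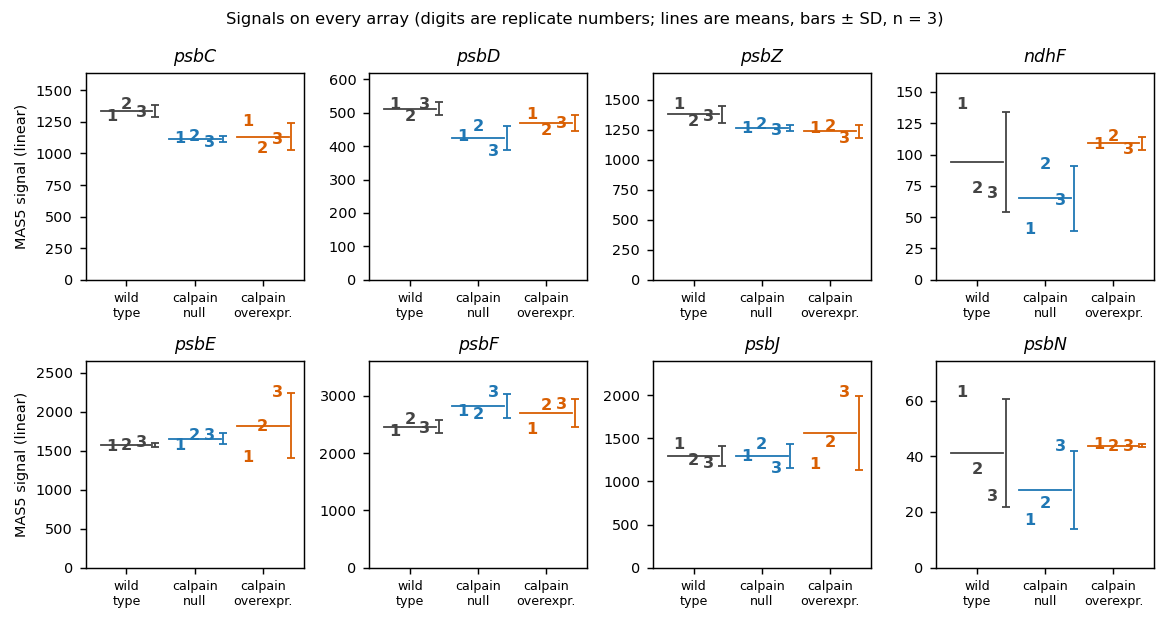
Linear MAS5 signals of 8 plastid transcripts on every array, with digits giving the replicate number, horizontal lines the group means and bars ± SD (n = 3), and each vertical axis starting at 0. In psbC all 6 transgenic arrays are below the wild-type arrays, in psbE and psbJ overexpressing replicate 3 is highest, and in ndhF and psbN null replicate 1 is lowest.

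The 7 photosystem I genes comprise the core subunits psaA, psaB and psaC, the small subunits psaI and psaJ, and the assembly factors ycf3 and ycf4. Their median log2 fold change was -0.052 for overexpressing and -0.014 for null against wild type, and 4 of the 7 were highest on wild-type replicate 1. The psaB probe set (ArthCp021), for a reaction-centre protein, read 3816, 3448 and 3209.9 in wild type, 3807, 3333 and 4355 in null and 3624, 3125 and 3349 in overexpressing leaves. The groups overlapped, and overexpressing against null was -0.18 (limma adjusted p = 0.647). The ycf3 probe set (ArthCp023) read 585, 289.6 and 293 in wild type, 287, 325 and 268 in null and 326, 278 and 343 in overexpressing leaves. Outside wild-type replicate 1 its range was 268 to 343, and the log2 fold change for overexpressing against wild type turned from -0.22 (adjusted p = 0.629) to 0.11 without that array.

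The cytochrome b6f complex carries electrons between the photosystems, and 6 of its subunits were measured. Their median log2 fold change was -0.030 for overexpressing and -0.20 for null against wild type. The petN probe set (ArthCp015), for a small subunit, read 141, 96.3 and 100.1 in wild type, 87.5, 73.8 and 107 in null and 92.1, 84.7 and 101 in overexpressing leaves, and was -0.26 for overexpressing against wild type (limma adjusted p = 0.455), or -0.086 without wild-type replicate 1. Of the subunits that carry the haems, petA (ArthCp035, cytochrome f) read 2377, 2083 and 2222, then 2238, 2633 and 2451, then 2204, 2243 and 2469. Its groups overlapped, with 0.13 for null against wild type (adjusted p = 0.500).

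The brightest of these genes, petB (ArthCp053, cytochrome b6), read 5342, 4802 and 4367 in wild type, 4763, 5158 and 5627 in null and 4769.6, 4427 and 4831 in overexpressing leaves. Its 2 transgenic groups both overlapped the wild type. The petD and petG subunits had larger differences between overexpressing and null, each 0.26 (limma adjusted p = 0.692 and 0.557). The petD probe set (ArthCp054) read 160.5, 108 and 92.1 in wild type, 93.2, 88.3 and 107 in null and 104, 116 and 128 in overexpressing leaves. The petG probe set (ArthCp041) read 347, 306 and 293, then 247, 304 and 307, then 288, 377 and 366, and its overexpressing and null arrays overlapped as those of petD did.

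The NDH complex returns electrons from the stroma to the electron transport chain around photosystem I. Of its 10 measured genes, 6 were above 0 for overexpressing and 3 for null against wild type, with medians of 0.030 and -0.094. The largest log2 fold change among all 47 plastid genes was that of ndhF (ArthCp071), which read 139.8, 72.6 and 69.2 in wild type, 40.3, 92.1 and 63.1 in calpain null and 108, 115 and 104 in calpain overexpressing leaves. All overexpressing arrays lay above all null arrays, with means of 109 ± 5.32 and 65.2 ± 26.0 (SD, n = 3 each) and a log2 fold change of 0.78 (95% interval 0.16 to 1.41, limma adjusted p = 0.329). The wild-type arrays lay on both sides of the overexpressing range (0.28, adjusted p = 0.632), a value that was 0.59 without wild-type replicate 1 (limma adjusted p = 0.382) and 0.14 and 0.11 without replicates 2 and 3. For null against wild type it was -0.50, and -0.19 without wild-type replicate 1, and the 0.78 became 0.49 without null replicate 1. Over the alternatives, the adjusted p for overexpressing against null ran from 0.169 to 0.609.

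The ndhE probe set (ArthCp076) read 607, 339 and 334 in wild type, 276, 313 and 349 in null and 281, 386 and 478 in overexpressing leaves. Wild-type replicate 1 was the highest of the 9 arrays, and null against wild type was -0.39 (limma adjusted p = 0.408), or -0.11 without that array. The brightest of the NDH genes, ndhI (ArthCp078), read 4026, 3802 and 3512, then 3758, 3896 and 4497, then 3887, 3728 and 4033, with the groups overlapping. The ndhC probe set (ArthCp027), named after its values were seen, read 1679.6, 1624 and 1503 in wild type and 1402, 1486 and 1481 in null, which did not overlap (-0.14, adjusted p = 0.465), while overexpressing replicates at 1295, 1407 and 1523 reached the wild-type range.

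The rbcL gene encodes the large, catalytic subunit of Rubisco. Its probe set (ArthCp030) read 314, 184 and 171 in wild type, 235, 231 and 245 in calpain null and 199.8, 173 and 231 in calpain overexpressing leaves. The wild-type arrays spanned both transgenic groups, and the log2 fold changes were 0.14 for null against wild type (limma adjusted p = 0.744) and -0.24 for overexpressing against null (adjusted p = 0.751).

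The 4 subunit genes of the plastid polymerase were all highest on wild-type replicate 1, and all 4 had negative log2 fold changes in both comparisons with wild type, with medians of -0.10 for overexpressing and -0.19 for null. The rpoA probe set (ArthCp055) read 1899.5, 1381 and 1517 in wild type, 913, 1792 and 1423 in null and 1429, 1462 and 1489 in overexpressing leaves. Null replicate 1 was the lowest array and the null group overlapped both others. The rpoB probe set (ArthCp014), named after its values were seen, read 226, 119 and 130.4 in wild type, 111, 129 and 128 in null and 137, 131 and 174 in overexpressing leaves, whose lowest array was just above the highest null array (0.25, limma adjusted p = 0.755).

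The remaining genes encode an acetyl-CoA carboxylase subunit (accD), an intron maturase (matK), a protease subunit (clpP) and an envelope protein (cemA). Their median log2 fold change was -0.11 for overexpressing and -0.036 for null against wild type. The clpP probe set (ArthCp048) read 3076, 2523 and 2540.2 in wild type, 2724, 2899.6 and 2885 in null and 2567, 2423 and 2621 in overexpressing leaves. Every overexpressing array was below every null array, by -0.16 (limma adjusted p = 0.625), and both groups overlapped the wild type.

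Genes were also grouped by the polymerase known to transcribe them. The 27 genes read mainly by the plastid-encoded polymerase had a median log2 fold change of -0.045 for overexpressing and -0.038 for null against wild type. The 12 genes read by both enzymes had -0.0065 and -0.094. The 4 read mainly by the nuclear-encoded polymerase (rpoB, rpoC1, rpoC2 and accD) had -0.072 and -0.10, and all 4 were highest on wild-type replicate 1. No member of any class was called.

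Some sets of cotranscribed neighbours were highest on the same array and others were not, and this was not tested. The genes rpoB, rpoC1 and rpoC2 were all highest on wild-type replicate 1, as were ndhC, ndhK and ndhJ, against 55.3% of all 47 genes. Both psaA and psaB were highest on calpain null replicate 3, against 17.0% of the 47, the same share as on overexpressing replicate 3. By contrast, psbD was highest on wild-type replicate 1 and psbC on wild-type replicate 2. The genes psbB, psbT, psbH, petB and petD were spread over wild-type replicate 1, null replicates 2 and 3 and overexpressing replicate 3. In the unit from ndhH to ndhD, which includes psaC, 4 of 7 genes were highest on overexpressing replicate 3, 6 of 7 were above 0 for overexpressing against wild type, and the median was 0.13. Medians of the other units for overexpressing against wild type were -0.18 for psbD and psbC, -0.16 for ndhC, ndhK and ndhJ, -0.090 for the rpo unit, 0.0090 for psaA and psaB and -0.014 for psbB, psbT, psbH, petB and petD.

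**Figure D5:**
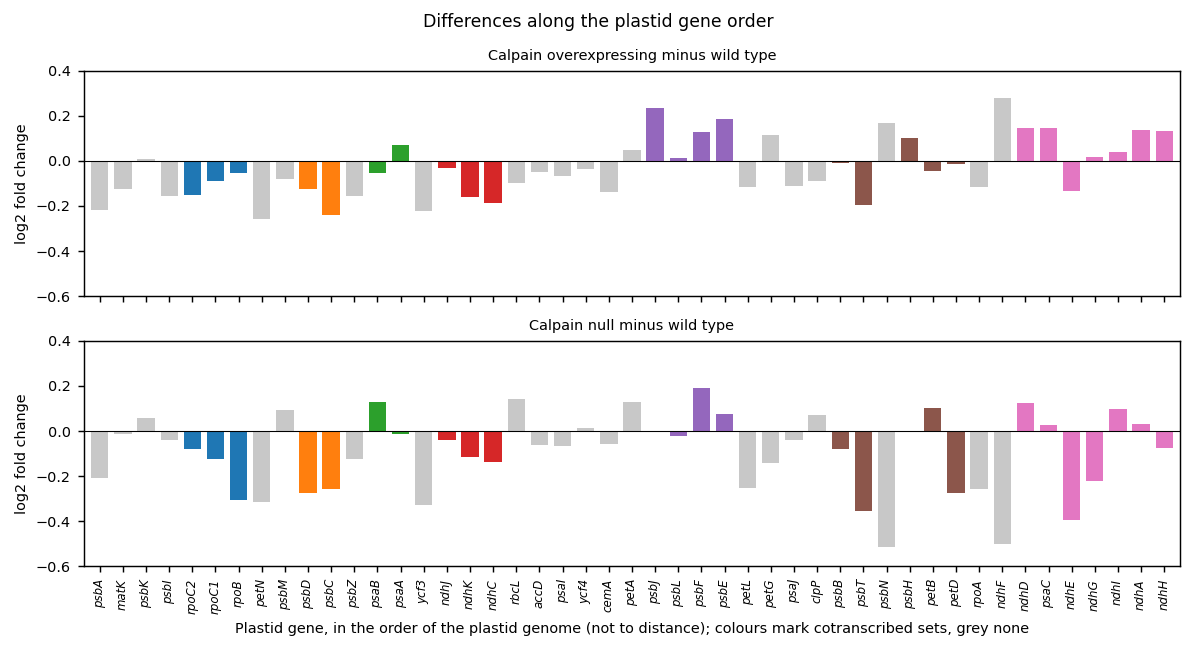
Log2 fold changes of the 47 plastid transcripts as bars in the order of their genes on the plastid genome (not to distance), for calpain overexpressing minus wild type (upper panel) and calpain null minus wild type (lower panel), with colours marking cotranscribed sets and grey genes outside them. The psbE set is above 0 in all 4 genes in the upper panel, and the psbD and psbC set is below 0 in both panels.

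Other organelle-encoded genes and nuclear genes of related function were examined as lists, with 0 called in any of the 3 comparisons. Over all probe sets, 1.61% were called for overexpressing against wild type, 0.0565% for null against wild type and 0.523% for overexpressing against null. At such shares, lists of this size would hold few calls or none, so the count of 0 says little about them. In the annotation used here no single-gene probe set carries the names of the nuclear sigma factors, phage-type polymerases, polymerase-associated proteins or chloroplast regulators listed, and these were not analysed here. For the 22 other plastid-encoded probe sets the median log2 fold change was -0.17 for overexpressing and -0.10 for null against wild type, and the smallest limma adjusted p was that of rps3, a small-subunit ribosomal protein, at -0.28 (adjusted p = 0.193). For 15 nuclear genes of the photosynthesis list the medians were 0.024 and 0.050. Besides photosystem, antenna and NDH subunits this list holds ATPC1, an ATP synthase subunit, and CRR genes, of which CRR21, CRR22 and CRR28 encode editing factors of plastid RNA. The largest difference among these was that of LHCB4.3, an antenna protein isoform, with means of 69.6 in wild type, 65.0 in null and 128 in overexpressing leaves (0.88 for overexpressing against wild type, adjusted p = 0.0753). NdhL, a nuclear-encoded NDH subunit, had 0.37 (adjusted p = 0.167).

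Of 9 nuclear probe sets listed under plastid RNA processing and decay, 5 passed the filter, with medians of -0.35 for overexpressing and -0.36 for null against wild type. Those with the smallest p were OTP70 in overexpressing leaves (-0.53, limma adjusted p = 0.154) and OTP81, an RNA editing factor, in null leaves (-0.88, adjusted p = 0.157), both dim with group means between 17.5 and 35.7. The 5 also include OTP87, which is known to act in mitochondria, and HCF101, an iron-sulphur cluster assembly factor for photosystem I. Of 23 mitochondrion-encoded probe sets, 10 passed the filter, with medians of -0.018 and 0.21.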

How the data were processed

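Signal intensities on a linear scale were deposited by the authors, made with GCOS and the MAS5 algorithm per the submitters' processing notes. Each array's trimmed mean (2% off each end) was 100.01, and scanner files were not used here. The 64 control probe sets were left out. Probe sets with a signal of at least 17.6 (the 40th percentile of the table) on at least 3 arrays were kept. After adding a pseudocount of 3.63, the 20th percentile of all signals, log2 values were fitted over all 9 arrays with limma 3.58.1 (lmFit, eBayes with trend) in R 4.3.3. Benjamini-Hochberg adjustment covered 14151 probe sets, with calls at an adjusted p under 0.05. Names came from the platform annotation, and gene order, but no coordinates, from RefSeq (TAIR10.1). Sequences were not used here.

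Genes named with values in every array were, for each comparison, the 4 members with the highest and the 4 with the lowest log2 fold change, the 5 brightest members and the brightest of each functional group. Others are marked as chosen after their values were seen. The members and lists were chosen with earlier results of these data known. Alternatives were other pseudocounts, filters, scalings, probe set types and priors, array weights, the replicate number as a block, only the groups compared, and arrays left out.

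Data over 14151 probe sets were simulated with independent normal noise on each array, using the residual SD of each probe set. The changed probe sets were drawn at random from all, and no effect was shared between probe sets of an array. There the fit recovered 84 of 100 changes of 2-fold and 95 of 100 of 4-fold for overexpressing against wild type, with 18 false calls. For null against wild type it recovered 72 and 98 of 100, and for overexpressing against null 75 and 99. The real arrays carry shared effects, such as that of wild-type replicate 1, so these rates do not give the power on them.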

Additional observations from a re-analysis of the deposited data

How the results depend on the processing

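The count of plastid genes called was 0 in the analysis reported and under each alternative for null against wild type and for overexpressing against null. For overexpressing against wild type it was 1 with array weights (psbC, limma adjusted p = 0.0163) and 1 without the arrays numbered 1 (psbC). It was 0 to 2 when each array was left out in turn, with 2 (psbC and psbE) without calpain overexpressing replicate 1. Over all probe sets tested, 2663 of 14151, 1914 of 13825 and 1775 of 14064 were called in these settings, in that order. The F-test called 1 with array weights (psbC, adjusted p = 0.0302). The median log2 fold change of the 47 genes took the opposite sign without wild-type replicate 1, at 0.096 for overexpressing and 0.046 for null against wild type, and without all arrays numbered 1, at 0.11 and 0.096. With single arrays left out it ran from -0.14 to 0.096 for overexpressing against wild type, from -0.12 to 0.046 for null against wild type and from -0.032 to 0.092 for overexpressing against null.

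Calls over all probe sets moved far more. For overexpressing against wild type (228) they numbered 76 with no filter, 102 with no intensity trend, 2663 with array weights, 1914 without the arrays numbered 1 and 24 to 1775 with single arrays left out. For null against wild type (8) they numbered 16 with the stricter filter, 619 with array weights, 272 with only the 2 groups, 1110 without the arrays numbered 1 and 1 to 490 with single arrays left out. For overexpressing against null (74) they numbered 39 with no filter, 238 with array weights, 24 with only the 2 groups, 351 without the arrays numbered 1 and 22 to 153 with single arrays left out. The cause was not tested.

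With the replicate block, calls over all probe sets numbered 770, 461 and 187 in these comparisons, and 0 plastid genes were called in each. Same-numbered arrays correlated in their deviations from group means by -0.13 to 0.37, with 3 of 9 pairs over 0.1. The highest values were 0.37 between replicates 1 of null and overexpressing and 0.32 between replicates 1 of wild type and overexpressing. Replicates 1 of wild type and null had -0.0070. The labels do not say that numbers pair arrays, and they were not taken as pairs. Whether same-numbered arrays share a batch was not tested.

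Of the genes named by the rule, these changed sign. With single arrays left out, the log2 fold change for overexpressing against wild type ran from -0.10 (without wild-type replicate 3) to 0.49 (without wild-type replicate 1) for psbN, from -0.39 to 0.11 for ycf3 and from -0.46 to 0.0034 for psbA, and the highest value of ycf3 and psbA came without wild-type replicate 1. For rbcL, null against wild type ran from -0.020 (without wild-type replicate 3) to 0.41, and for psbM, overexpressing against null ran from -0.41 to 0.028 (without calpain null replicate 3). Without the arrays numbered 1, ycf3 was 0.084 for overexpressing against wild type, and for null against wild type psbN was 0.072, ndhF 0.10 and psbT 0.00084. With quantile normalization psbM was 0.011 for overexpressing against null. In these 10 cases the difference was not called either way.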
